A study of Mus musculus with 35 samples.

Results

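Histone H3 acetylated at lysine 27 (H3K27ac) was compared between SSEA+ cells sorted on day 6 and on day 9 of the reprogramming of mouse embryonic fibroblasts (MEF) towards pluripotency. The peak lists of 3 day 6 and 2 day 9 libraries, of 22 listed libraries in the series, were merged on chromosomes 1 to 19 and X into 52093 regions. A region was called gained where both day 9 libraries and no day 6 library held a peak, lost where all 3 day 6 libraries and no day 9 library did, and common where all 5 did. There were 15496 gained regions (29.7% of all merged regions), 6 lost regions (0.0115%) and 10182 common regions (19.5%), while 26409 regions fell in none of these classes. These counts depend on the lists. With the best 17493 peaks of each list, 2589 regions were gained and 107 lost. Without the first or second day 9 library 26420 or 25223 were gained, and leaving out 1 library gave 9 to 35 lost.

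Both groups had the same genotype, OKSM Col1a1/M2rtTA ROSA26 in a strain labelled C57BL/6 x 129. The OKSM cassette in the Col1a1 locus codes for Pou5f1, Klf4, Sox2 and Myc on a single transcript, and M2rtTA, expressed from the Rosa26 locus, turns it on in the presence of doxycycline. Cells of both days had been kept in ESC medium containing doxycycline at 1 µg/ml together with ascorbic acid at 50 µg/ml, so that the transgenes were still induced at both times. Day 6 had 2 libraries in the batch labelled DG-3458 and 1 in the batch EA-3702, while both day 9 libraries came from EA-3702. No label says whether libraries of a group came from separate cultures or animals, and the spread between them may be technical. The other groups, used here only for reference, were MEF, unsorted day 3 cells under the same induction, and the embryonic stem cell (ESC) line V6.5, grown on irradiated feeder cells, in part with inhibitors of MEK and GSK3 (2i). The label SSEA+ names a surface carbohydrate of pluripotent mouse cells, so the sort enriched both days for cells already on that path, and a sorted sample can still hold a mixture.

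H3K27ac is laid down mainly by the acetyltransferases p300 and CBP and marks active promoters and enhancers. In reprogramming, fibroblast enhancers are silenced early, the cells then take on epithelial features in a mesenchymal-to-epithelial transition, and the endogenous pluripotency network is switched on late. A peak is a stretch where the precipitated reads exceed a background model, so a missing peak does not show a missing mark, and in a sorted population fewer marked cells and less mark per cell cannot be told apart.

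Gained gene starts included those of Zfp42 (also Rex1), Tdgf1 (the Nodal co-receptor Cripto) and the nuclear receptor gene Nr5a2 among pluripotency genes, and of the tight junction genes Cldn3, Cldn7 and Ocln and the epithelial GTPase gene Rab25. The 250 bases before these starts are shown as examples of windows under a peak in both day 9 libraries and under none at day 6 that also held one of the motifs below. Capitals mark GGGNGTGG, the letters of a KLF-type GC box, and CAGGTG, an E-box of the kind that ZEB and SNAI repressors are known to bind, on either strand (sequences from RefSeq, GRCm38.p6, 5′ to 3′ along the gene).
Zfp42 (chr8:43307010-43307259, minus strand): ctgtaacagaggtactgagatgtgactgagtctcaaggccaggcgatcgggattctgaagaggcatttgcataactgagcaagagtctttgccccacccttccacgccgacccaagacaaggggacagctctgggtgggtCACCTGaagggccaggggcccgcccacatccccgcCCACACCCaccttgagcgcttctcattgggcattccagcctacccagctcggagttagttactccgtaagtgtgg
Tdgf1 (chr9:110946159-110946408, minus strand): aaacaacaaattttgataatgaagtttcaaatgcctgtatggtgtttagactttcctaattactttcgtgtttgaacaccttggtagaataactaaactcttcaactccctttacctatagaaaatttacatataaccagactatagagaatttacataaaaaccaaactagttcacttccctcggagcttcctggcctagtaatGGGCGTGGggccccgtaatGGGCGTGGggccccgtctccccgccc
Nr5a2 (chr1:136953631-136953880, minus strand): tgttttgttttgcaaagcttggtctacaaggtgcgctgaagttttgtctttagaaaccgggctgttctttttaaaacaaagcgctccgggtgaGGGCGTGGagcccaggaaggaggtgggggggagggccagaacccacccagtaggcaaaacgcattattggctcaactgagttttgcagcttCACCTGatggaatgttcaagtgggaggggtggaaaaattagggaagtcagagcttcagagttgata
Cldn3 (chr5:134985964-134986213, plus strand): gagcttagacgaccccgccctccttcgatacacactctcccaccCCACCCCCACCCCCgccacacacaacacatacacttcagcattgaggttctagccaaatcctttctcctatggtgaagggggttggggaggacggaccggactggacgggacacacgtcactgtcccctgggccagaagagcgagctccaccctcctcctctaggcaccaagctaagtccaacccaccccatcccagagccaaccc
Cldn7 (chr11:69965171-69965420, plus strand): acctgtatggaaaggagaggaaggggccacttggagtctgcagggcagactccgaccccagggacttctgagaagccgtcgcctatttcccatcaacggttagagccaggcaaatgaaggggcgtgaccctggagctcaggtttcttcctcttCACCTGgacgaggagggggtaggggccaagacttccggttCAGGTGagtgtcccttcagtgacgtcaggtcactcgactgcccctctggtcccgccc
Ocln (chr13:100552499-100552748, minus strand): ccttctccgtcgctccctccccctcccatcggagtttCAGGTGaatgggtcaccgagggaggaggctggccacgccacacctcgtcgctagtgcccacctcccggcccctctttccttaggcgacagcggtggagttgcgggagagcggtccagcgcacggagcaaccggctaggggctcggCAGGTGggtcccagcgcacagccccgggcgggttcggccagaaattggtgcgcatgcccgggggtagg
Rab25 (chr3:88548280-88548529, minus strand): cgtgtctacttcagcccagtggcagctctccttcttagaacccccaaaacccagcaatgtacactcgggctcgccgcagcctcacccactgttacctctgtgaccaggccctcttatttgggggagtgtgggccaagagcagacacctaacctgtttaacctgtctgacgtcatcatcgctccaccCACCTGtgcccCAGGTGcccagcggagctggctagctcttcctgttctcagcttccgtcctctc

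Zfp42 held a match to each motif, Tdgf1 held 2 KLF-type matches, Nr5a2 held 1 of each and Cldn3 held 2 overlapping KLF-type matches. Cldn7, Ocln and Rab25 each held 2 E-box matches and no KLF-type match. Of the gained windows of both lists that are not shown, those of Tfcp2l1, Krt8 and Krt18 held matches, while those of Utf1, Nr0b1 and Cgn and another window of Ocln held none of the motifs searched. Among 1813 promoter windows that were themselves gained, 21.6% held the KLF-type letters, against 20.5% of 5390 common windows, 13.9% of 9418 windows without a peak in the 5 lists and 17.9% of all 20880 windows. The E-box letters stood in 21.0% of gained and 13.1% of common windows, in 1801 of the 9418 unmarked windows, and in 17.1% of all. TGANTCA, the AP-1 motif, was found in 5.07% of gained, 2.89% of common and 9.1% of unmarked windows (6.15% of all). The octamer ATGCAAAT was found in 2.1%, 1.28% and 1.79% (1.60% of all), and the ESRRB motif TCAAGGTCA in 0.221%, 0.167% and 0.414% (0.302% of all). The median GC content of these windows differed too, at 58.8% in gained, 64.0% in common and 48.8% in unmarked windows, and its part in the shares was not tested. KLF-type and E-box matches shared a base in 15 windows. A match is a description of the letters and does not show binding.

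The day 9 lists were longer than any day 6 list. On day 6 they held 20783 and 17493 peaks in batch DG-3458 and 22462 in batch EA-3702, and on day 9 they held 43974 and 45506 peaks. Of the regions in a day 6 library, 5.27% ± 3.10 (SD, n = 3) had no day 9 peak, whereas 56.2% ± 0.391 of the regions in a day 9 library (SD, n = 2) had no day 6 peak. Peaks covered 13.2 ± 5.85 Mb at day 6 (SD, n = 3) and 49.2 ± 0.452 Mb at day 9 (SD, n = 2). With the best 17493 peaks of each list they covered 12.2 ± 4.84 Mb at day 6 (SD, n = 3) and 32.8 ± 0.00605 Mb at day 9 (SD, n = 2). The values of the 2 groups did not overlap, and the exact permutation test, two-sided and run over all 10 labelings, gave p = 0.1 for peak number and for covered length, the smallest value that 3 against 2 libraries allow (adjusted p = 0.1375 over 11 tests). No comparison of these 5 libraries can therefore pass 0.05. Read depth is not given for any library, and its part in the longer day 9 lists was not tested. Within batch EA-3702 alone the direction was the same, with 16965 gained and 889 lost regions, so the shortage of lost regions under the full rule also reflects that 3 day 6 libraries had to share a peak.

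**Figure D1:**
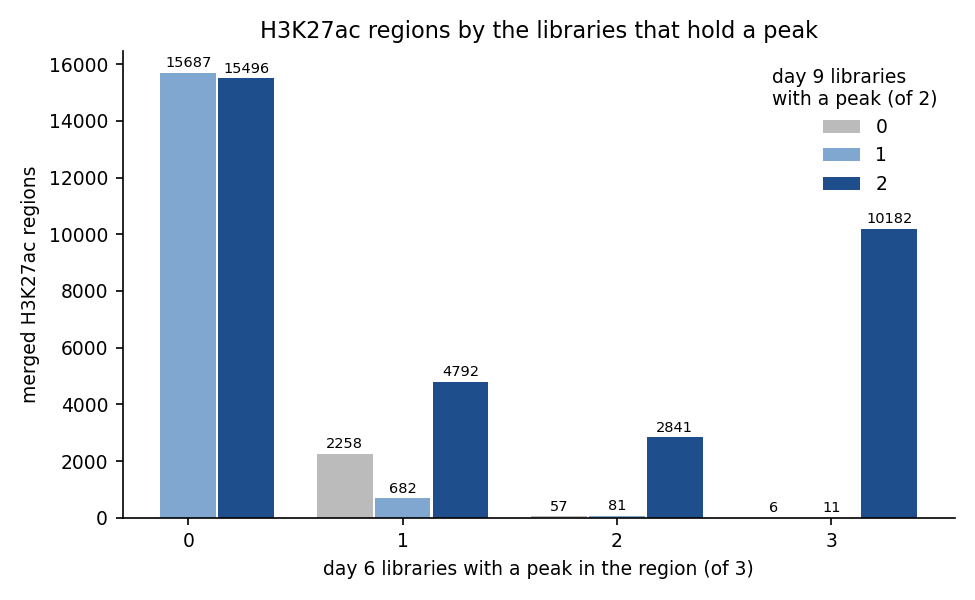
Number of merged H3K27ac regions (vertical axis) by the number of day 6 libraries with a peak (horizontal axis) and of day 9 libraries with a peak (colour). The 15496 gained regions are the dark bar at 0 and the 10182 common regions the dark bar at 3, while the 6 lost regions are hardly visible at 3.

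Gained regions were narrower than common ones and mostly away from gene starts. Their median width was 802 bp, against 2070.5 bp for common regions, 443 bp for the 26409 regions in no class and 750 bp for all merged regions. A protein-coding gene start lay within 1 kb of 12.1% of gained regions and of 75.1% of common ones, beside 24.8% of all merged regions and 13.0% of the regions in no class. The median distance to a start was 20.8 kb for gained regions and 21.2 kb for those in no class, so the distal position was shared with the latter. Per library, 56.8%, 62.9% and 46.6% of the day 6 peaks and 28.2% and 28.0% of the day 9 peaks lay within 1 kb of a start (exact permutation test, p = 0.1, adjusted p = 0.1375), and the groups did not overlap. The DG-3458 libraries were farther from day 9 than the EA-3702 day 6 library, and within EA-3702 the difference was -18.5 percentage points in place of -27.3. When every list was shortened to its best 17493 peaks, the shares came closer, to 61.8%, 62.9% and 54.5% at day 6 and 52.8% and 53.9% at day 9. Median peak width was 382 and 410 bp in DG-3458 and 672 bp in EA-3702 at day 6, and 763 and 735 bp at day 9 (exact permutation test, p = 0.2), and within EA-3702 the difference was 77 bp in place of 261. In the lists of 17493 peaks the medians were 440, 410 and 822 bp at day 6 and 1682 and 1690 bp at day 9, a difference of 1129 bp (exact permutation test, p = 0.1).

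Gains fell on every chromosome in similar measure. Of the 33311 regions found in both day 9 libraries, 46.5% were gained, with a range from 42.6% on chromosome 11 to 49.9% on the X chromosome. The X chromosome held 1.69%, 1.77% and 1.95% of the day 6 peaks and 2.09% and 2.1% of the day 9 peaks (exact permutation test, p = 0.2, adjusted p = 0.2). The 2 groups did not overlap, yet 2 of the 10 labelings gave a difference at least as large. That difference was 0.288 percentage points, against 0.139 within EA-3702 and 0.549 with equal numbers of peaks (exact permutation test, p = 0.1).

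Gained regions were weaker than common ones at day 9 and lay near the middle of the day 9 lists. The authors' fold enrichment, the strongest peak of each region, had a median of 3.33 and 3.52 for gained regions in the day 9 libraries, and of 14.1 and 15.7 for common regions. Over all peaks of these lists the median fold was 3.88 and 3.99, and the median gained region ranked at 58.0% and 56.4% of them. The day 9 regions were therefore ordered by their mean rank in both day 9 lists and cut into deciles. In the best decile 1 of 3332 regions was gained and 98.4% were common, and in the last decile 90.5% of 3331 were gained. Position made a difference between these ends. In the third decile, 8.48% ± 4.75 of the regions within 1 kb of a start had no peak in a given day 6 library, against 37.0% ± 16.9 of the regions farther away (SD, n = 3 libraries each). In the fifth decile the values were 45.8% ± 11.7 and 72.7% ± 13.7. Distal regions lay above promoters in each of the 3 libraries in deciles 1 to 9. The reverse comparison was one-sided: in each day 6 library the best 10% of its regions all had peaks in both day 9 libraries, and of the last 10% 32.0% and 11.6% in DG-3458 and 21.7% in EA-3702 had no day 9 peak.

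**Figure D2:**
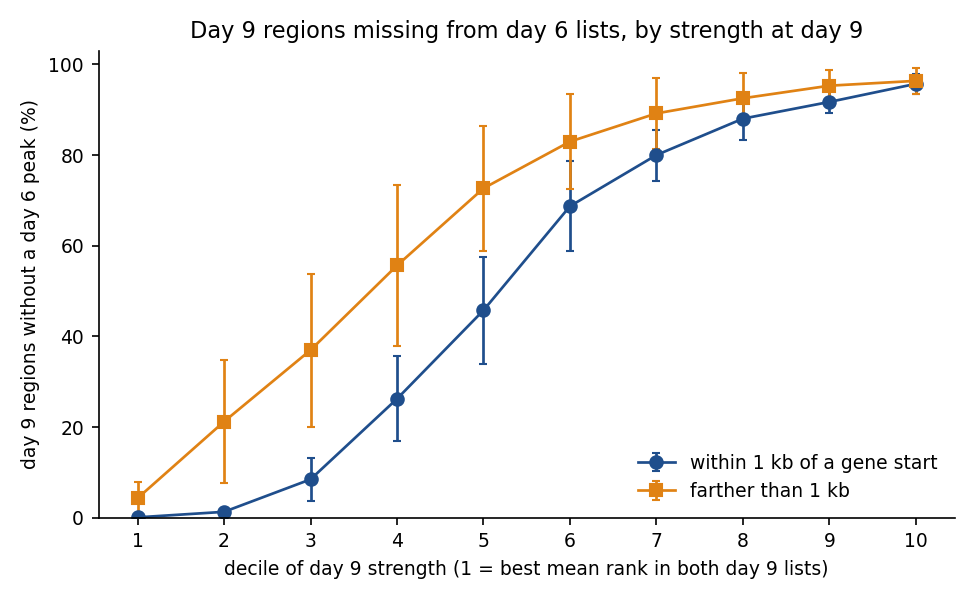
Share of the 33311 regions found in both day 9 libraries that had no peak in a day 6 library (vertical axis), by decile of day 9 strength (horizontal axis). Points are means over the 3 day 6 libraries and bars their SD; regions farther than 1 kb from a gene start (squares) have higher means than those near a start (circles) in each decile, and the bars overlap from decile 6.

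The 8 gained regions with the best ranks at day 9 carried authors' folds from 13.9 to 21.0 and no peak in any day 6 library. The first, chr1:88606670-88610624, lay in no protein-coding gene and 91.6 kb from the start of Arl4c, which codes for a small GTPase of the Arf family. Its folds were 21.0 and 19.4 at day 9 and 22.6 and 18.8 in ESC, with no peak in MEF or day 3. The second, chr6:125590113-125593769, overlapped Vwf, the gene of von Willebrand factor, at 18.9 and 19.8. The third, chr15:79845759-79848884, lay 11.4 kb from an end of Npcd at 17.3 and 20.8. Both were also marked in the ESC libraries and in no MEF or day 3 library. The regions near Ccdc177 (chr12:80762809-80765179) and Idi1 (chr13:8894891-8897326), an isomerase gene of sterol synthesis, had no peak in either ESC library. KLF4 peaks lay in both day 9 KLF4 libraries at 7 of the 8 regions, the exception being the one near Npcd, and at 31.1% of all gained regions. A region overlapping an end of Ripk4, a kinase gene of epidermal differentiation, had day 9 folds of 17.6 and 13.9 and MEF folds of 5.54 and 3.05, though folds of different lists are not on a common scale. The remaining ones lay near Fis1 and Tdpoz7, the latter from a multigene family where reads may be placed uncertainly.

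The 6 lost regions were weak in the lists that defined them, with folds between 1.97 and 4.53 at day 6. They lay at Emp3 and 0.435 kb from the start of Elf4, an ETS factor gene, inside Cyth3 and Gipc1, and 157 and 160.0 kb from ends of Klf14 and Tmem38b. Of these, 5 had peaks in both MEF libraries and 5 in all day 3 libraries, and 1, at Elf4, had them in both ESC libraries. At Cyth3 the folds were 35.6 and 40.7 in MEF, 6.52, 12.9 and 8.09 at day 3 and 3.00, 3.75 and 2.79 at day 6. Requiring a q-value of at most 0.01 left none of the 6. The strongest common regions lay at Dnajb4, a heat-shock co-chaperone gene, with folds of 19.9, 18.9 and 25.3 at day 6 and 57.9 and 55.3 at day 9, and at 9030025P20Rik. The other 2 were a region overlapping Gm3435, 10.0 kb from the start of Gm3448, and 1 overlapping no coding gene, whose nearest start, that of Gm15319, was 65.5 kb away.

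In libraries that took no part in the rule, gained regions met peaks most often in ESC, though the lists differ in length, with 81971 and 81231 peaks in ESC, 88070 and 88347 in MEF and 46723, 50836 and 41471 at day 3, and were not shortened to a common number. H3K27ac peaks were found at 45.7% and 44.5% of gained regions in the ESC libraries, at 27.2% in each MEF library, and at 29.7%, 23.4% and 18.1% in the day 3 libraries. Moving the regions by 1 Mb gave means of 5.95%, 7.16% and 3.20%, so the order of ESC and day 3 is not separated from list length. Common regions had peaks at 92.8% ± 0.0764 in ESC and 90.7% ± 0.118 in MEF (SD, n = 2 each), and the day 3 value was 96.2% ± 1.38 over 3 libraries. The gained share minus the lost share was 28.4 ± 0.858 percentage points in ESC, against -56.1 ± 0.0228 in MEF (SD, n = 2 each), and it was -59.6 ± 5.77 over the 3 day 3 libraries. An exact permutation test of the stages with all 210 labelings gave F = 318 and p = 0.0571 (two-sided, adjusted p = 0.1375), and the lost share rests on 6 regions. With equal numbers of peaks and 107 lost regions the ESC difference came to 3.37 ± 4.76 percentage points (SD, n = 2), with single libraries at 6.73 and 0.0018, against -57.6 ± 1.82 in MEF, and F fell to 89.8 (exact permutation test, p = 0.0857). Measured against common regions instead, a difference added after the data were seen, the values were -47.8 ± 0.781, -63.5 ± 0.141 and -72.4 ± 4.41 in ESC, MEF and day 3 (exact permutation test, F = 36.9, p = 0.0190). Batch DG-3458 held all MEF and ESC libraries and 2 of the day 3 libraries. Within it the gained shares were 45.7% and 44.5% in ESC, 27.2% in each MEF library and 23.4% and 18.1% at day 3. The test of the gained minus lost share gave F = 1044 and p = 0.0667 over 90 labelings (exact permutation test). Exchanging the names of groups of 2 libraries leaves F unchanged. This p is therefore the smallest these labelings allow, and the test could not pass the threshold.

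The gained regions split by their history. Peaks in both ESC libraries were found at 6200 of them (40.0%), and 3056 (19.7%) were marked in both ESC libraries and in no MEF or day 3 library. A further 1936 (12.5%) had peaks in both MEF and both ESC libraries, and were thus without a listed peak at day 6 although marked in the starting and the reference cells. The MEF libraries had the longest H3K27ac lists, and those of day 6 were the shortest. Another 1410 (9.1%) were marked in both MEF libraries but not in ESC. The remaining large group, 4464 regions (28.8%), had no peak in any MEF, day 3 or ESC library, and 4.50% of these lay within 1 kb of a start. Of these 62.5% lay in the last 3 deciles of day 9 strength and 1.84% in the best 3, near the 55.7% and 2.01% of all gained regions. Promoters and distal regions differed: of 1871 gained regions within 1 kb of a start, 60.7% were marked in both ESC and 56.0% in both MEF libraries, and of 13625 farther away 37.2% and 20.3% were.

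KLF4, the zinc-finger factor among the induced ones, had peaks at 36.4% and 38.7% of gained regions in its day 9 libraries. On day 6 the shares were 22.9% in batch EA-3702 and 32.5% in batch DG-4040, on day 3 they were 32.3% and 22.6% in these batches, and in ESC without 2i 17.5% and 28.1%. Regions moved by 1 Mb gave at most 2.26%. Day 9 lay above every other KLF4 library here, and in batch EA-3702 the order was 22.9% at day 6 and 36.4% and 38.7% at day 9. Gained promoters had another order, with 30.0% and 33.8% in the day 9 libraries and 39.3% and 38.4% in the 2i ESC libraries. Common regions differed as well, with 80.9% and 58.7% at day 6 and 63.4% and 67.5% at day 9. The gained share minus the lost share differed between KLF4 stages with F = 7.70 and p = 0.0275 by a two-sided exact permutation test with 113400 labelings (adjusted p = 0.1375), which did not pass the threshold after adjustment. The lost share rests on 6 regions. Of these, 2 had a peak in each day 3 and day 6 KLF4 library and 1 in each other KLF4 library, so part of this contrast is 1 region. The same difference taken against common regions gave p = 0.612 (exact permutation test, F = 0.716). KLF4 was present in both day 6 and both day 9 libraries at 2288 gained regions (14.8%), in no day 6 and both day 9 libraries at 1046 (6.75%), and in none of the 4 at 7545 (48.7%). The regions marked in ESC but not in MEF or day 3 had day 9 KLF4 in both libraries at 38.9%, and those marked in MEF but not in ESC at 17.6%. Taken per H3K27ac list, 35.6%, 38.7% and 41.4% of the day 6 peaks and 35.0% and 34.3% of the day 9 peaks met a peak of both day 9 KLF4 libraries (exact permutation test, p = 0.2, adjusted p = 0.2). In lists shortened to their best 17493 peaks the direction turned, to 38.9%, 38.7% and 47.5% at day 6 and 59.0% and 58.5% at day 9 (exact permutation test, p = 0.1).

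**Figure D3:**
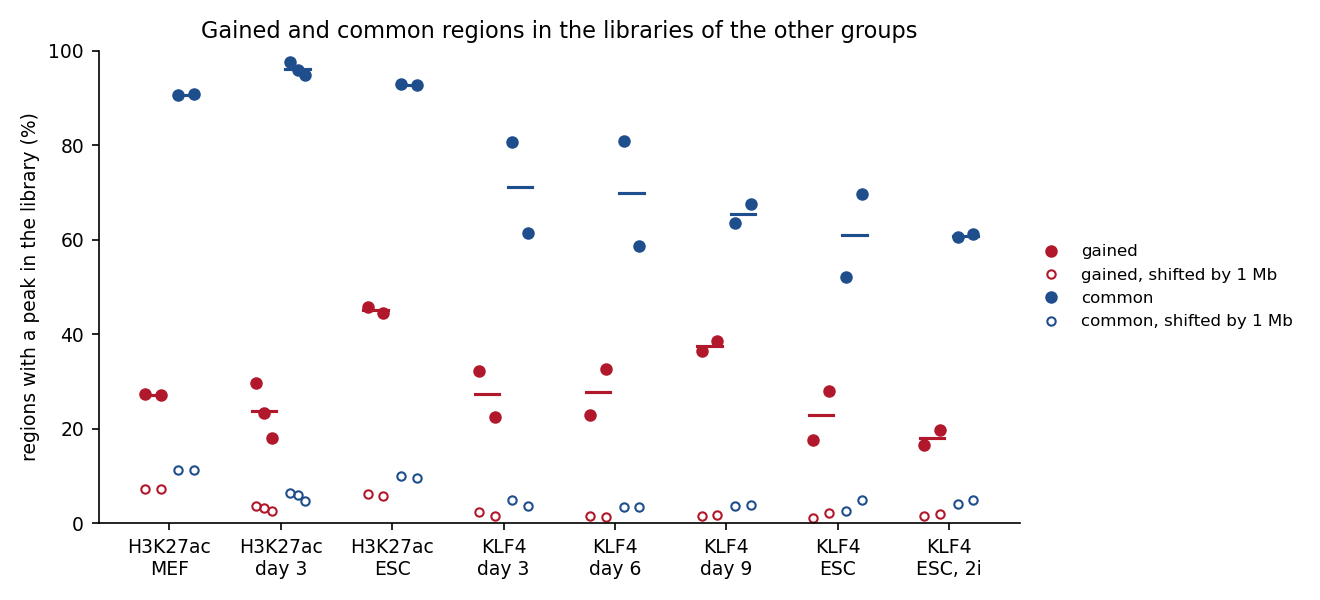
Percentage of the 15496 gained (red) and 10182 common (blue) regions with a peak in each library of the groups that the rule did not use. Filled points are libraries, short lines their means, and open points the same regions moved by 1 Mb; gained regions reach 45.7% in ESC H3K27ac and 38.7% in day 9 KLF4.

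Gene starts were called in the same way from peaks within 2.5 kb of a start, or of either gene end where no start was listed. Of 21627 protein-coding genes, 1618 (7.48%) were gained, 1 (0.00462%) was lost and 8661 (40.0%) were common. The lost gene was Elf4. Of the 1618 gained starts, 1077 (66.6%) were marked in both ESC libraries and 952 (58.8%) in both MEF libraries, near the shares of all coding genes, of which 60.4% and 60.3% were marked in the single ESC libraries and 60.2% in each MEF library. Of the gained starts 353 were marked in all 3 day 3 libraries, which singly marked 11765, 10974 and 10655 of the 21627 coding genes. The gene lists below were compiled with earlier results of these data known, and their counts are descriptions.

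Epithelial junction and keratin genes had the highest gained share of the 19 lists, with 11 of 20 gained (Cldn3, Cldn7, Ocln, Krt8, Krt18, Krt19, Esrp1, Esrp2, Ovol1, Rab25 and Cgn), 5 common, 4 mixed and none unmarked. Among all coding genes 7.48% were gained, 40.0% common and 39.3% unmarked. A peak at the start was found for 7, 5 and 9 of the 20 genes at day 6 and for 20 in each day 9 library (exact permutation test, p = 0.1, adjusted p = 0.1375; this test was added after the data were seen). The groups did not overlap, and the count kept its direction in the lists shortened to 17493 peaks, at 4, 5 and 8 against 17 and 17. Marked starts were more numerous at day 9 in general. In the full lists 9670, 9263 and 10214 of all 21627 coding genes had one at day 6, and 12537 and 12787 at day 9. Esrp1, a splicing regulator of epithelial transcripts, had folds of 16.6 and 16.8 at day 9, and 3.70 and 3.50 in ESC. Ocln, coding for occludin, had 19.5 and 13.3 at day 9 and 8.22 and 6.16 in ESC. The claudin genes Cldn3 and Cldn7 had 12.0 and 10.1, and 14.1 and 12.3. None of these 4 had a peak in a MEF, day 3 or day 6 library. Their ranks put them in the best 7.52% to 20.7% of the day 9 lists. Krt18, Krt19 and Ovol1 were close to the end of the second day 9 list, at 91.9%, 96.2% and 90.6% of it, so their calls rest on weak peaks. Esrp2, by contrast, had folds of 23.8 and 25.8 in MEF and 4.29, 6.65 and 5.53 at day 3, no peak at day 6 and 5.36 and 6.94 at day 9. The starts of Esrp1, Esrp2, Krt19 and Ovol1 are not in the promoter table. For these genes both ends were used, and a peak may lie at either end.

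Of the 5 common epithelial genes, Cdh1, Epcam, Grhl2 and Dsp had low folds at day 6 and high ones at day 9, while Tjp1 was high on both days. The median fold of all common regions also rose, from 5.37, 5.47 and 6.42 at day 6 to 14.1 and 15.7 at day 9. Cdh1, coding for E-cadherin, ranked at 56.3%, 49.2% and 34.9% of the day 6 lists and at 3.92% and 4.89% of the day 9 lists, with folds of 3.71, 4.45 and 4.91 and of 23.2 and 22.2. Epcam, an epithelial adhesion gene, had folds of 5.23, 3.28 and 3.97 at day 6 and 24.6 and 22.9 at day 9. Grhl2, a transcription factor gene of epithelia, had 3.49, 5.23 and 4.28 at day 6 and 30.2 and 25.7 at day 9. For all 3 the day 9 values lay above each day 6 value, but folds and ranks depend on the depth and length of a list, and no test between lists was made. Distal gains were dense around these genes: 18 of the 20 list genes were nearest to at least 1 gained region between 1 and 50 kb from a start, against 25.6% of all coding genes, with 7 such regions at Cdh1, 7 at Dsp (desmoplakin) and 6 at Grhl2.

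**Figure D4:**
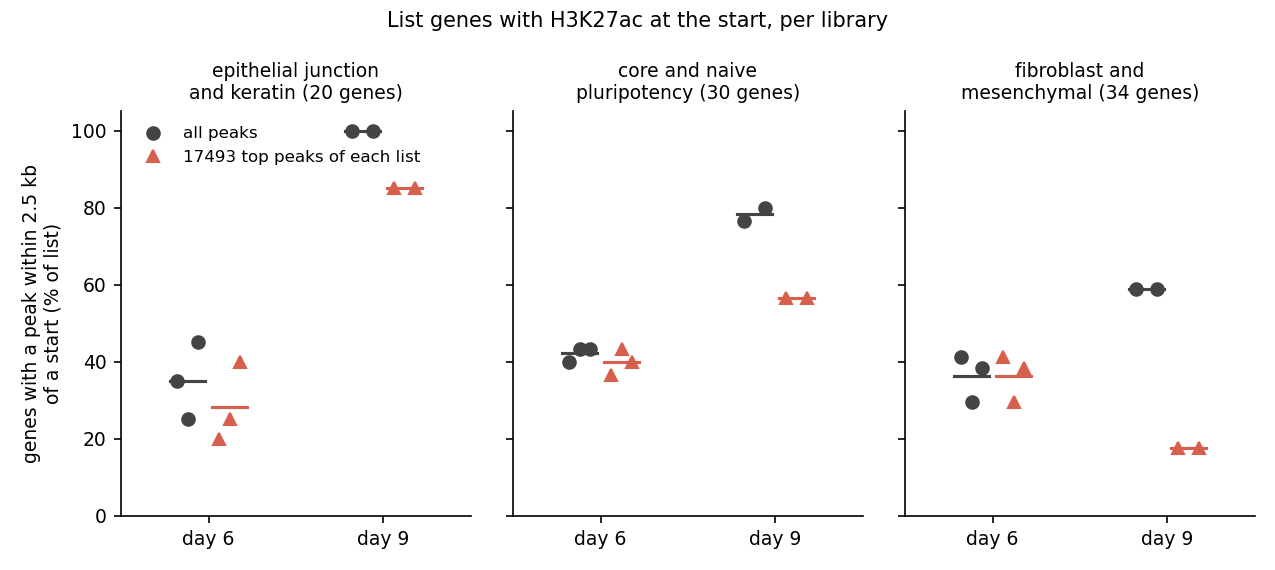
Percentage of genes with an H3K27ac peak within 2.5 kb of a start, for 3 gene lists, in each day 6 and day 9 library. Circles use all peaks and triangles the best 17493 peaks of each list, with short lines for means; the fibroblast list is higher at day 9 with all peaks and lower at day 9 with equal numbers of peaks.

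Core and naive pluripotency genes had 9 of 30 starts gained (Sox2, Zfp42, Dppa5a, Tdgf1, Tfcp2l1, Tbx3, Nr5a2, Utf1 and Nr0b1), 11 common, 4 mixed and 6 unmarked. The shares of all coding genes were 7.48% gained, 40.0% common and 39.3% unmarked, so the common share of the list was near that of all genes. A start peak was found for 12, 13 and 13 of the 30 genes at day 6 and 23 and 24 at day 9 (exact permutation test, p = 0.1, adjusted p = 0.1375), and with equal numbers of peaks for 11, 13 and 12 and for 17 and 17. In the full lists the count over all 21627 coding genes was 9670, 9263 and 10214 at day 6 and 12537 and 12787 at day 9. All 30 starts of the list had peaks in each ESC library. KLF4 peaks in both day 9 KLF4 libraries were found at 7 of the 9 gained starts, and at 501 of all 1618 gained starts. Nr5a2, a nuclear receptor that acts on Pou5f1, had folds of 10.0 and 11.7 at day 9 and 26.3 and 18.3 in ESC, with KLF4 folds at its start of 10.0 and 14.6 on day 6 and 19.9 and 23.4 on day 9. Utf1, a chromatin factor gene, had 7.58 and 12.5 at day 9, and Tdgf1 had 7.84 and 10.6. None of these 3 had a MEF or day 3 peak. Zfp42 carried KLF4 at folds of 8.27 and 5.06 on day 3 and of 12.5 and 8.85 on day 6, and had weak H3K27ac folds of 3.33 and 3.47 at day 9 and 20.1 and 20.0 in ESC. Sox2 had folds of 3.76 and 3.16 in MEF, 3.85 and 3.16 at day 9 and 27.7 and 29.0 in ESC. Sox2, Pou5f1 and Klf4 are also encoded by the cassette, and reads from its copies and from the endogenous exons cannot be told apart.

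Tbx3 followed another course, with folds of 18.4 and 24.3 in MEF, 5.73, 5.32 and 4.55 at day 3, no peak at day 6, 2.35 and 2.92 at day 9 and 37.3 and 37.0 in ESC. No start of Tbx3 or Dppa5a is in the promoter table, so both gene ends were used for them. Nanog and Pou5f1 were mixed. Nanog had folds of 3.38 and 2.95 in the DG-3458 libraries of day 6 and no peak in the EA-3702 library, and 4.32 and 3.65 at day 9. Pou5f1 had a peak only in the EA-3702 library at day 6, at 2.27, and 6.47 and 7.23 at day 9. The common genes included Klf4, Klf2, Klf5, Sall4 and Fgf4, and the starts of Esrrb, Dppa2, Dppa3, Dppa4, Prdm14 and Tcl1 had no peak in any of the 5 lists. Gained regions away from starts nevertheless lay nearest to Prdm14 (3 regions), Dppa3 (1) and Esrrb (1), and to Klf2 (4), Klf5 (3), Jarid2 (3) and Nr5a2 (3). Both day 6 and day 9 were marked at Fut9, the fucosyltransferase gene that makes the SSEA1 epitope, with folds of 6.08, 4.90 and 6.19 and of 22 and 24.8, and no MEF or day 3 library had a peak there.

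**Figure D5:**
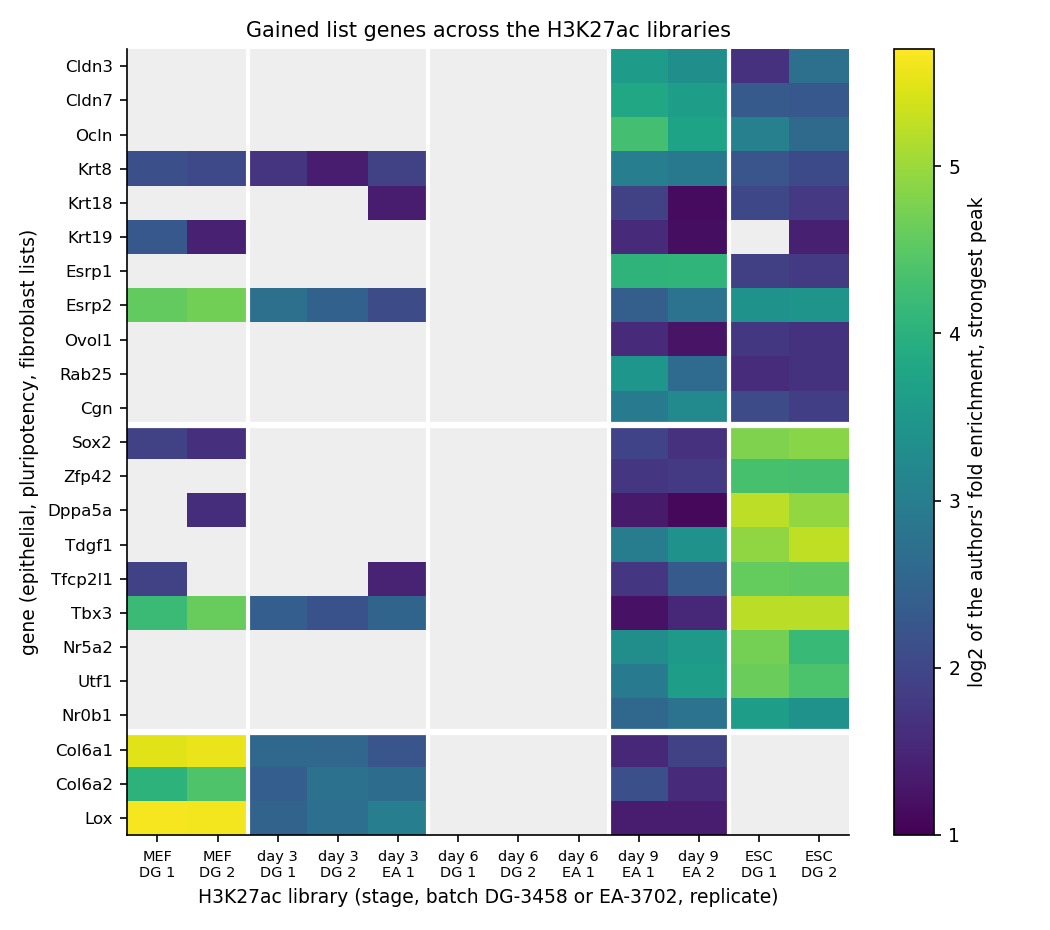
Log2 of the authors' fold enrichment of the strongest peak within 2.5 kb of a start, for the gained genes of the epithelial (top), pluripotency (middle) and fibroblast (bottom) lists in the 12 H3K27ac libraries. Grey cells hold no peak, so the 3 day 6 columns are empty by the rule; Col6a1, Col6a2 and Lox are marked in MEF and day 3, and folds of different libraries are not on a common scale.

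Fibroblast and mesenchymal genes gave opposite readings in full and shortened lists. In the full lists 3 of 34 were gained (Col6a1 and Col6a2, coding for collagen VI, and Lox, the collagen cross-linking oxidase), none was lost, 10 were common, 8 mixed and 13 unmarked. The gained share of 8.82% lies near the 7.48% of all genes. Leaving out 1 library gave 3 to 6 gained genes of this list. The 6 came without the first DG-3458 library of day 6, where 8.64% of all genes were gained. A start peak was found for 14, 10 and 13 of the 34 genes at day 6 and for 20 in each day 9 library (exact permutation test, p = 0.1, adjusted p = 0.1375). All coding genes also rose, from 9670, 9263 and 10214 of 21627 with a start peak at day 6 to 12537 and 12787 at day 9. With the best 17493 peaks of each list, the counts of fibroblast list genes were 14, 10 and 13 at day 6 and 6 and 6 at day 9 (p = 0.1, exact permutation test), a difference of -6.33 genes in place of 7.67. Col6a1 had folds of 44.9 and 47.5 in MEF, 4.74, 5.99 and 5.85 at day 3, none at day 6 and 2.91 and 3.82 at day 9, and no peak in ESC. Lox had 2.59 and 2.61 at day 9 after 49.6 and 49.1 in MEF, and its day 9 peaks ranked at 82.4% and 85.9% of their lists. For Lox, too, both gene ends were used.

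Shortening all lists to equal numbers of peaks gave 2589 gained regions (11.5% of 22471) and 107 lost ones (0.476%), with 9335 common (41.5%). Of the lost ones, 95.8% ± 1.98 still had a peak in the full day 9 lists (SD, n = 2), so most of them had not lost their peak. They had peaks at 88.3% ± 1.98 in MEF and 58.9% ± 3.97 in ESC (SD, n = 2 each), and the equal-number gained regions at 30.7% ± 0.164 and 62.2% ± 0.792. Day 9 KLF4 was found at 70.4% ± 1.8 of the gained, 13.6% ± 4.63 of the lost and 66.7% ± 3.03 of the common (SD, n = 2 each). The common regions had H3K27ac peaks at 91.7% in MEF and 94.5% in ESC. The 461 gained gene starts (2.13%) held 9 of the 20 epithelial genes, Cldn4 now included, 5 of the 30 pluripotency genes (Pou5f1, Tdgf1, Nr5a2, Utf1 and Nr0b1) and none of the 34 fibroblast genes. The 37 lost gene starts (0.171%, beside 8256 or 38.2% common) held 4 fibroblast genes, Twist1, Zeb1, Zeb2 and Prrx1, all transcription factor genes of mesenchymal cells, and no gene of the pluripotency or epithelial lists. Hoxa7, Hoxa10 and Hoxb4, genes of positional identity, and the matrix genes Fbn1 and Nid2 were among the other lost starts, and were chosen here after their values were seen. The 4 factors kept peaks in both full day 9 lists. Zeb1, for example, had −log10 p of 6.28, 6.91 and 10.4 at day 6 and 11.3 and 14.3 at day 9, which is not lower, and it ranked at 43.4%, 45.0% and 38.8% of the day 6 lists and at 41.4% and 38.5% of the longer day 9 lists. Twist1 had −log10 p of 5.36, 4.49 and 11.2 at day 6 and 3.18 and 8.36 at day 9, and these ranges overlap. Such values depend on the depth of a list, which is unknown, and were not tested between lists. Zeb1 lies on chromosome 18, where both gene ends were used.

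Signalling and growth genes were mostly marked on both days, where 40.0% of all coding genes had common starts. Common starts made up 13 of 14 genes of the FGF and ERK feedback list, 10 of 10 of the AP-1 and immediate early list, 10 of 12 of the LIF, STAT3 and BMP-ID list, 13 of 16 of the cell cycle list and 11 of 12 housekeeping genes, with no gained start in any of these lists, which in lists of this length is near the 7.48% of all coding genes. Gained distal regions were nearest to 10 of the 14 FGF, 6 of the 10 AP-1, 6 of the 12 LIF, 9 of the 16 cell cycle and none of the 12 housekeeping genes, beside 25.6% of all coding genes. Of the 30 such regions at FGF genes, 8 lay at Etv5, an ETS factor gene downstream of ERK. Of the 13 WNT genes, Tcf7 alone had a gained start, which is near the 7.48% of all coding genes, and 11 were nearest to gained distal regions, beside the same 25.6%. Of these 30 regions 9 lay at Tcf7l2. In the Nodal list Tdgf1 and Lefty1, a Nodal inhibitor gene, were gained, with Lefty1 at folds of 2.96 and 3.99. Lin28b was the only gained start among 15 formative and primed genes, Tgfbr3 among 13 TGF-beta genes and Kit among 12 surface marker genes, each near the share of all coding genes. Of 9 DNA methylation and TET genes none was gained and 5 were common, also near the shares of all coding genes.

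Beside the 7.48% of all coding genes, gained starts of markers of other cell types were found for 3 of 8 keratinocyte markers (Krt14, Krt6a and Sfn), 2 of 8 neural markers (Tubb3 and Sox1), 1 of 8 blood and macrophage markers (Cd68), 2 of 14 extra-embryonic genes (Elf5 and Dab2) and 2 of 14 germ line genes (Tdrd1 and Tex19.1). No peak in any of the 5 lists was found at 10 of the 14 germ line and 7 of the 14 extra-embryonic genes, beside 8505 of all 21627 coding genes. Krt14, a keratin of basal epidermis, had folds of 2.77 and 4.34 at day 9 and no peak in MEF, day 3 or ESC, and Krt6a had 4.86 and 4.22. Elf5, a trophoblast and mammary factor gene, had 6.24 and 4.74 and was also unmarked in ESC. Cd68 differed between the day 9 libraries, at 14.6 and 6.07, and Tdrd1 more so, at 20.4 and 3.85. Of the 8 keratinocyte markers 4, of the neural markers 4 and of the blood markers 5 had no peak in any of the 5 libraries, which is not far from that share of all coding genes. The part of such cells in the gains of the epithelial list was not tested.

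Some genes collected many gained regions. Of the 15496, 11069 lay within 50 kb of the start of their nearest gene, spread over 6672 genes, of which 4125 had 1 and 191 had at least 5. The most, 19, fell to Gm40363, where regions stood at a median spacing of 2.03 kb. None of its regions was common, 17 of the 19 held KLF4 peaks in both day 6 libraries and 1 was marked in both ESC libraries. Reads may be placed uncertainly at such a locus, and whether it is repeated sequence was not tested. Dip2b followed with 12, Kif13a, a kinesin gene, with 11, and Lmnb1 (lamin B1) and Zmynd8, a chromatin reader gene, with 10 each. Cd9, a tetraspanin gene of ESC and epithelia, Podxl, Foxp1, Rbm20, Sema6a and Tcf7l2 had 9 each. Lmnb1 and Sema6a lie on chromosome 18, where both gene ends served as starts. Their counts are therefore not directly comparable with those of genes with a listed start. Near Zmynd8, 7 of 10 gained regions were marked in both ESC libraries and 3 in both MEF libraries, near Lmnb1 6 and 5, and near Kif13a none and 3. Each of the 10 genes after Gm40363 had at least 1 common region within 50 kb. Among gained distal regions in general, the nearest start was common in 57.7% of 9198, gained in 10.7% and unmarked in the 5 lists in 17.5%, whereas of all genes 40.0%, 7.48% and 39.3% were. For 1823 common distal regions these shares were 66.6%, 5.87% and 14.5%, so nearness to common starts was not particular to gained regions.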

How the data were processed

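H3K27ac and KLF4 ChIP-seq had been made from cells fixed in 1% formaldehyde for 10 minutes, per the labels' protocols. The submitters' processing notes name cutadapt 1.8.1, Bowtie2 2.2.5, MACS2 2.1.1, deepTools 2.3.6 and the build mm10; peaks were listed per library, and the control is not given in the sources used here. Each deposited list gives the authors' score, their fold (a ratio over background) and significance as −log10, for p and for q. Without read counts in these files the depth of a library cannot be stated, and intervals for counting error could not be computed.

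Lists were merged where peaks shared at least 1 bp, with numpy 2.4.6 and pandas 2.3.3. Peaks on Y were left out. Gene starts came from RefSeq promoter windows (GRCm38.p6, the mm10 assembly) for 17273 of 21627 coding genes; for the other 4354, which include chromosome 18, both gene ends served. Of the 262 genes of the lists, 174 had a listed start. In the windows TATAAA was densest just before the start on both strands, which was used to check their orientation. Comparisons used 1 value per library and exact permutation tests, adjusted over 11 tests by Benjamini-Hochberg. Region and gene classes carry no test. The code was tested on simulated lists. Members, lists and rules were chosen with earlier results of these data known. Named regions are the 8 gained, all lost and 4 common ones with the best mean score rank, the 10 genes with the most gained regions (11 with ties), and list genes gained or lost; other list genes were named after their values were seen. Alternatives were equal numbers of peaks, a q-value of at most 0.01, 50% overlap, joined peaks, other distances, blocks and leaving out each library. The peak names inside the day 6 lists of batch DG-3458 carry the other replicate's number; the deposited assignment was used.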

Additional observations from a re-analysis of the deposited data

How the results depend on the processing

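Depth is unknown for every list, and with 3 against 2 libraries no exact test of day 6 against day 9 can reach 0.05, so these p-values say nothing of stability. Of 200 alternatives, 167 left the result on its side of the threshold or within 1.5 times its count, and the cause of the others was not tested unless stated. For the tests of day 6 against day 9 that side was fixed beforehand, so this tally does not measure how stable their values were. The side was also fixed for the H3K27ac F test without a day 3 library, where groups of equal size keep p above the threshold. The overlap alternative could not change a region class, since each peak lies wholly inside its merged region. Its gene counts were identical to the main ones as well. These unchanged counts are part of the tally and say nothing of stability. With equal numbers of top peaks, gained regions fell from 15496 to 2589, lost regions came to 107, gene starts gained to 461, pluripotency list genes gained to 5 and fibroblast list genes gained to 0; the day 9 KLF4 share turned from -3.95 to 17.0 percentage points, the gained minus lost share in ESC went from 28.4 to 3.37 (F = 89.8), the day 9 minus day 6 difference went from 36.0 to 20.6 Mb in covered length, from 261 to 1129 bp in median width, from -27.3 to -6.33 points in promoter share, from 0.288 to 0.549 points in X share and from 10.8 to 5 pluripotency list genes marked, and fibroblast list genes marked turned from 7.67 to -6.33. Presence in the top peaks and absence from full lists gave 1901 gained and 3 lost regions, and 301 gene starts, 4 pluripotency and 0 fibroblast genes gained. A q-value of at most 0.01 left 0 lost regions. Batch EA-3702 alone gave 889 lost and 16357 common regions, as fewer libraries have to hold a peak, and 6 fibroblast genes gained, as fewer have to lack one. Joining peaks within 1 kb gave 12438 gained regions.

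Leaving out 1 library gave 15871 to 26420 gained, 9 to 35 lost and 10225 to 11844 common regions, 1723 to 2222 gene starts gained, 9 to 10 pluripotency, 11 to 13 epithelial and 3 to 6 fibroblast genes gained. Without the first or second day 9 library there were 26420 or 25223 gained regions. The F of the H3K27ac shares ran from 139 to 1044 and that of the KLF4 shares from 3.79 to 10.0, the latter no longer passing the unadjusted threshold in 7 of 10 cases (highest p = 0.108, exact permutation test, without the second day 9 library). Taken against common regions, a choice made after seeing the data like the counts of gained list genes and of gained regions in ESC, F was 36.9 for H3K27ac and 0.716 for KLF4.

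Whether the replicate numbers pair the samples is not known. Over common regions the deviations of log2 fold of same-numbered libraries correlated between -0.0328 and 0.0558. With 2 day 9 libraries these deviations mirror each other, and correlations of folds cannot show whether libraries shared a culture. With the replicate number as a block the differences kept their values (10.8 pluripotency, 7.67 fibroblast and 13.0 epithelial genes), with exact permutation p-values from 0.167 to 0.333 over 6 labelings; the F tests gave 318 (p = 0.111) and 7.70 (p = 0.0275). Within batch EA-3702 the differences were 10.5, 7 and 11 genes.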
